A study of Rattus norvegicus with 11 samples.

Results

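The microRNAs of the miR-17-92 cluster and its paralogues were described in rat liver after total parenteral nutrition (TPN). The members were all rows of the deposited table named miR-17, miR-18a, miR-19a, miR-19b, miR-20a, miR-92a, miR-106b, miR-93, miR-25 or miR-92b, with every arm and copy. In the table each name starts with rno- for the rat (rno-miR-25-3p, rno-miR-20a-5p and rno-miR-93-5p are the most abundant members), and the prefix is left out below. This gave 21 of the 1331 rows, of which 533 carried names of rat microRNAs and 798 names of predicted ones. Rows became members by name and not by a threshold on their values, but the names were chosen with earlier results of these data known. Of the 21, 13 bear names of the Mir17-92 cluster, 6 of the Mcm7 intron cluster and 2 of miR-92b.

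A microRNA is a short RNA that leads the silencing machinery to messenger RNAs, mainly through its seed, the bases near its 5′ end. The Mir17-92 transcript carries several hairpins and is switched on by the growth regulators MYC and E2F. Its products are known for restraining the cell cycle inhibitor p21 and the pro-apoptotic protein Bim. The paralogous hairpins miR-106b, miR-93 and miR-25 lie in an intron of Mcm7, which encodes a subunit of the helicase that opens DNA for replication. Liver that regenerates and liver tumours are both known for high levels of these microRNAs, while most cells of the resting adult liver do not divide.

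The mature sequences below are shown because the seed sorts the members into families that cut across the clusters. They are the RefSeq sequences (GRCr8), 5′ to 3′, with the seed (bases 2 to 8) in capitals, and all 21 member names matched an entry. The first 4 share a seed, with miR-17-5p and miR-20a-5p from Mir17-92 and the other pair from the Mcm7 intron.
miR-17-5p: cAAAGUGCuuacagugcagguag
miR-20a-5p: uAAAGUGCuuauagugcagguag
miR-93-5p: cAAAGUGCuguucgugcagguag
miR-106b-5p: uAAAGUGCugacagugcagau
miR-18a-5p: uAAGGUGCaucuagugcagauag
miR-19a-3p: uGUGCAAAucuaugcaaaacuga
miR-19b-3p: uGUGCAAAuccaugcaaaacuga
miR-25-3p: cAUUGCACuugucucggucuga
miR-92a-3p: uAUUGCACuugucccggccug
miR-92b-3p: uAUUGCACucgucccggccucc
miR-106b-3p: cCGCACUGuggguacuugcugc
The last of these is the other arm of the miR-106b hairpin, and no other sequence printed here has its seed. miR-17-5p and miR-20a-5p differ at 2 of 23 bases, miR-19a-3p and miR-19b-3p at 1 of 23, and miR-25-3p and miR-92a-3p at 3 of the 21 bases they can be compared over.

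Liver RNA came from 5 TPN rats, which had received their nutrition through a vein for 7 days, and 6 Control rats, which had eaten chow and received intravenous 0.9% saline for the same 7 days. All were male Sprague-Dawley rats, an outbred strain, 4 weeks old at the start, and each library was 1 numbered rat. The infused mixture is not given in the sources used here, and whole liver holds all of its cell types. Values are CPM, the reads of a row per 1000000 reads assigned to the table, and the libraries held 1404858 to 14788757 such reads. Control 5, 12 and 19 stood apart. They had the fewest reads (3891974, 1404858 and 2929983), and predicted rows took 0.517%, 1.996% and 0.560% of them, against 0.0965% to 0.145% in the other libraries. The hepatocyte microRNAs (miR-122, miR-192, miR-194 and miR-802), which check the tissue label, summed to 66369 to 295987 CPM in TPN and 54078 to 413499 CPM in Control.

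Whether any of these microRNAs differed in level between TPN and Control was tested first. No member passed the test. Of the 21 rows, 11 had a mean of at least 1 CPM over all libraries and entered the fit. The call was an adjusted p under 0.05 (limma-trend on log2(CPM + 1), Benjamini-Hochberg adjustment over all 535 rows tested), and 0 of 11 members were called, against 0.0% of all rows in each direction. The smallest adjusted p of a member was 0.309, for miR-17-5p and miR-18a-5p. At an unadjusted p under 0.05, 0 of 11 members were lower and 0 were higher, against 11.2% and 0.187% of all rows. On reads recovered from the CPM, edgeR and limma-voom called 0 of 535 rows. DESeq2 called 5 rows higher (0.935%) and 108 lower (20.2%), and 0 of the 11 members. At an unadjusted p under 0.05, edgeR and limma-voom each had 1.5% of all rows higher and DESeq2 had 1.68%, while 29.9%, 1.12% and 34.2% were lower with edgeR, limma-voom and DESeq2. None of these tools put a member among them. In no member did the 5 TPN rats lie wholly below or wholly above the 6 Control rats, a separation seen in 1.5% of all rows on the lower side and 0.0% on the higher. On the deposited scale 10 of 11 members had a log2 fold change below 0. So did 79.3% of the 280 rat-named rows and 84.9% of all rows tested, so the sign alone does not set the members apart. The median was -0.53 for the 11 members, -0.26 for the rat-named rows and -0.56 for all rows tested. Fold changes are TPN over Control. Because 1 is added to each CPM before the logarithm, those of rare rows come out too small. Since each library is 1 rat, the p-values measure the spread between rats. Several of the values were nearer to 0 or above it without Control 5, 12 and 19. Without these libraries the log2 fold change was -0.15 for miR-17-5p, -0.28 for miR-18a-5p, -0.07 for miR-19a-3p, 0.10 for miR-19b-3p, -0.14 for miR-20a-5p and -0.32 for miR-92a-3p. It was 0.11 for miR-106b-5p, -0.16 for miR-106b-3p, -0.18 for miR-93-5p and -0.13 for miR-25-3p, while miR-92b-3p was under the filter.

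**Figure D1:**
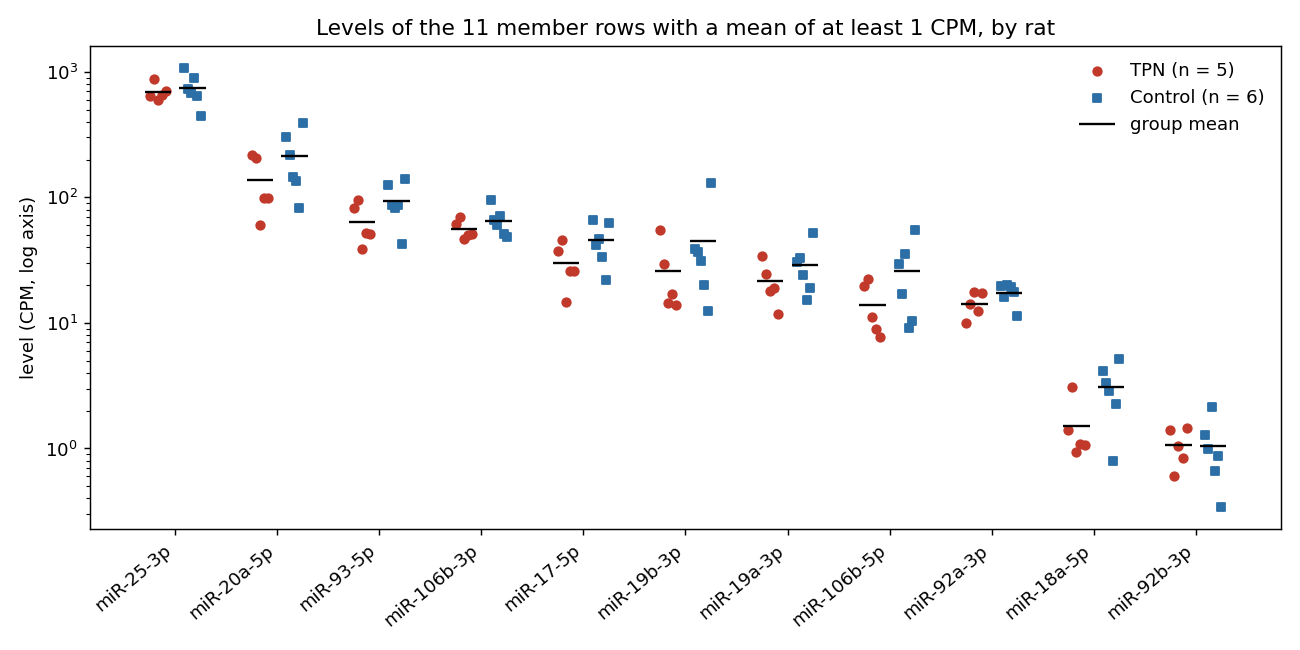
Level of the 11 members that entered the fit in each rat, in CPM on a log axis, with TPN rats (circles, n = 5) left of Control rats (squares, n = 6) and a line at each group mean. miR-25-3p is highest in all 11 rats and the groups overlap in every member.

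Within the Mir17-92 cluster, miR-20a-5p was the most abundant product, with 47.4% to 65.1% of the cluster's reads in every library. It had 218, 207, 60.6, 98.4 and 99.6 CPM in TPN 6, 8, 11, 15 and 16, and 82.9 to 395 CPM with a median of 182 in Control. TPN 6 and 8 lay above the Control median and the other TPN rats below it. The TPN mean was 137 ± 70.9 CPM and the Control mean 213 ± 117 CPM (SD, n = 5 and 6). The log2 fold change was -0.61 ± 0.43 (SE, adjusted p = 0.357, limma-trend), and -0.36 without TPN 11.

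miR-17-5p, which shares its seed with miR-20a-5p, followed at a lower level. It had 37.5, 45.6, 14.7, 25.9 and 26.0 CPM in TPN 6, 8, 11, 15 and 16, against 21.97 to 66.5 CPM with a median of 44.2 in Control. Only TPN 8 exceeded the median Control rat. The log2 fold change of miR-17-5p was -0.59 ± 0.34 (SE), with an adjusted p of 0.309 (limma-trend), and -0.37 without TPN 11. The ratio of miR-20a-5p to miR-17-5p lay between 3.81 and 5.81 in TPN and between 3.08 and 6.28 in Control.

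The miR-19 pair is known from mouse lymphoma as the part of the cluster that most promotes tumour growth. miR-19b-3p had 54.5, 29.6, 14.5, 17.01 and 13.8 CPM in TPN 6, 8, 11, 15 and 16, and 12.4 to 130 CPM with a median of 33.9 in Control. Control 19, at 130 CPM, lay far above the next Control rat at 38.8 CPM. The log2 fold change was -0.57 ± 0.53 (SE, adjusted p = 0.504, limma-trend), and -0.19 without Control 19.

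Its near twin miR-19a-3p had 33.9, 24.7, 17.96, 18.8 and 11.8 CPM in the same order of TPN rats, against 15.2 to 52.2 CPM with a median of 27.4 in Control. Its log2 fold change was -0.39 ± 0.34 (SE, adjusted p = 0.476, limma-trend), with -0.20 without Control 19 and -0.21 without TPN 16. The pair did not keep a fixed ratio. miR-19b-3p was 0.805 to 1.61 times miR-19a-3p in TPN and 0.651 to 2.48 times in Control, and the highest ratio was that of Control 19.

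miR-92a-3p, known for restraining the growth of blood vessels, was a small part of the cluster in these libraries. It had 10.01, 14.1, 17.5, 12.5 and 17.2 CPM in TPN 6, 8, 11, 15 and 16, against 11.3 to 19.9 CPM with a median of 18.5 in Control. Each of the 5 TPN rats was under the median of Control, but Control 19, at 11.3 CPM, lay below 4 of them. The log2 fold change was -0.27 ± 0.24 (SE, adjusted p = 0.485, limma-trend), close to the -0.26 of the median rat-named row. Its share of the cluster ran from 2.80% in TPN 6 to 13.7% in TPN 11, and from 1.71% in Control 19 to 11.2% in Control 18. TPN 6 and Control 19 had the lowest levels of miR-92a-3p in their groups and the highest of miR-19b-3p and miR-20a-5p.

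miR-18a-5p, whose seed differs from that of miR-17-5p, was the rarest of the leading arms. It had 1.40, 3.11, 0.933, 1.08 and 1.06 CPM in TPN 6, 8, 11, 15 and 16, against 0.795 to 5.12 CPM with a median of 3.09 in Control. These levels rest on 176 reads in all 11 libraries together, with 4 in Control 12. The log2 fold change was -0.66 ± 0.38 (SE, adjusted p = 0.309, limma-trend).

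Not every read of these rows can be placed in the Mir17-92 gene. In the RefSeq table (GRCr8), the hairpins of the cluster lie on chromosome 15, and a paralogous group with Mir106a, Mir20b, Mir19b2, Mir92a2 and Mir363 lies on chromosome X. Of the 6 leading arms, 3 (miR-17-5p, miR-19b-3p and miR-92a-3p) have the same mature sequence in both groups. Arms that differ between the groups are shown for that reason.
miR-17-1-3p: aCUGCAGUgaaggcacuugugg
miR-17-2-3p: aCUGCACUgcaagcacuucuuac
miR-20b-5p: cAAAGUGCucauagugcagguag
miR-363-3p: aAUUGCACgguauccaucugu
The first is the 3p arm beside miR-17-5p on chromosome 15, the second its counterpart from Mir106a on chromosome X, and they differ at 6 of 22 bases compared. Pooled over all reads of a group, miR-17-1-3p stood at 0.752 CPM in TPN and 0.677 CPM in Control (36 and 23 reads). miR-17-2-3p stood at 0.878 CPM in TPN and 1.03 CPM in Control (42 and 35 reads). In each group their exact Clopper-Pearson 95% intervals overlapped (0.527 to 1.04 and 0.633 to 1.19 CPM in TPN, 0.429 to 1.02 and 0.718 to 1.43 CPM in Control), so a difference between the 2 arms was not detectable at this depth. These intervals cover counting error only. By contrast, X-linked miR-20b-5p reached at most 1.15 CPM in a TPN rat and 2.14 CPM in a Control rat, where miR-20a-5p had at least 60.6 and 82.9 CPM. The X-linked miR-363-3p had a mean of 7.71 CPM in TPN livers, against 8.33 CPM in Control livers, and a log2 fold change of -0.02 ± 0.30 (SE, adjusted p = 0.987, limma-trend). Of the 4 rows of X-linked paralogues outside the members it alone was tested, and it was not called.

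The 10 members under 1 CPM were all seldom-read arms, with means between 0.0661 and 0.885 CPM, no value above 2.05 CPM and 281 reads in all libraries together. The rarest, miR-20a-3p, had 7 reads in 4 of the 5 TPN libraries and 0 in the 33976854 reads of the 6 Control libraries. The pooled TPN level was 0.146 CPM (exact Clopper-Pearson 95% interval 0.0588 to 0.301). For the 0 reads in Control the same kind of interval reaches 0.109 CPM, so the intervals overlap. The limit of 3 reads of the total is 0.0883 CPM. With no filter on low rows its adjusted p was 0.455 (limma-trend, unadjusted p = 0.0227).

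In the Mcm7 intron cluster, miR-25-3p outweighed all other products. It had 637, 881, 592, 652 and 707 CPM in TPN 6, 8, 11, 15 and 16, against 447 to 1075 CPM with a median of 703 in Control. The TPN rats lay inside the Control range. The TPN mean was 694 ± 112 CPM and the Control mean 744 ± 216 CPM (SD, n = 5 and 6), and the log2 fold change was -0.06 ± 0.23 (SE, adjusted p = 0.926, limma-trend). Among the members it was the most abundant in every library, and its lowest value, in Control 19, was above the highest value of any other member. It held 79.5% to 86.5% of its cluster in TPN and 64.8% to 86.2% in Control, where Control 19 was lowest.

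miR-93-5p, with the seed of miR-17-5p, had 81.8, 95.3, 38.7, 52.5 and 51.0 CPM in TPN 6, 8, 11, 15 and 16, against 42.2 to 140 CPM with a median of 87.2 in Control. TPN 8 alone lay above that median. The log2 fold change was -0.53 ± 0.33 (SE, adjusted p = 0.322, limma-trend).

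The miR-106b hairpin was read mostly from its 3p arm. In 10 of the 11 libraries miR-106b-5p, the arm with the seed of miR-17-5p, had a lower level than miR-106b-3p. miR-106b-5p had 19.6, 22.4, 11.2, 8.86 and 7.68 CPM in TPN 6, 8, 11, 15 and 16, against 9.14 to 54.9 CPM with a median of 23.2 in Control. miR-106b-3p had 61.6, 70.4, 46.9, 50.3 and 51.2 CPM in the same TPN rats, against 48.1 to 96.1 CPM with a median of 62.7 in Control. Their log2 fold changes were -0.70 ± 0.47 and -0.19 ± 0.22 (SE), with adjusted p of 0.335 and 0.612 (limma-trend).

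The ratio of the 5p to the 3p arm was 0.318, 0.319, 0.239, 0.176 and 0.150 in TPN 6, 8, 11, 15 and 16, against 0.128 to 1.14 with a median of 0.283 in Control. It was highest in Control 19 (1.14) and Control 12 (0.595), both among the libraries with the fewest reads and the largest predicted share, and their part in the difference was not tested. The mean log2 ratio was -2.12 ± 0.49 in TPN and -1.58 ± 1.13 in Control (SD), a difference of -0.54 that became 0.28 without Control 5, 12 and 19.

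**Figure D2:**
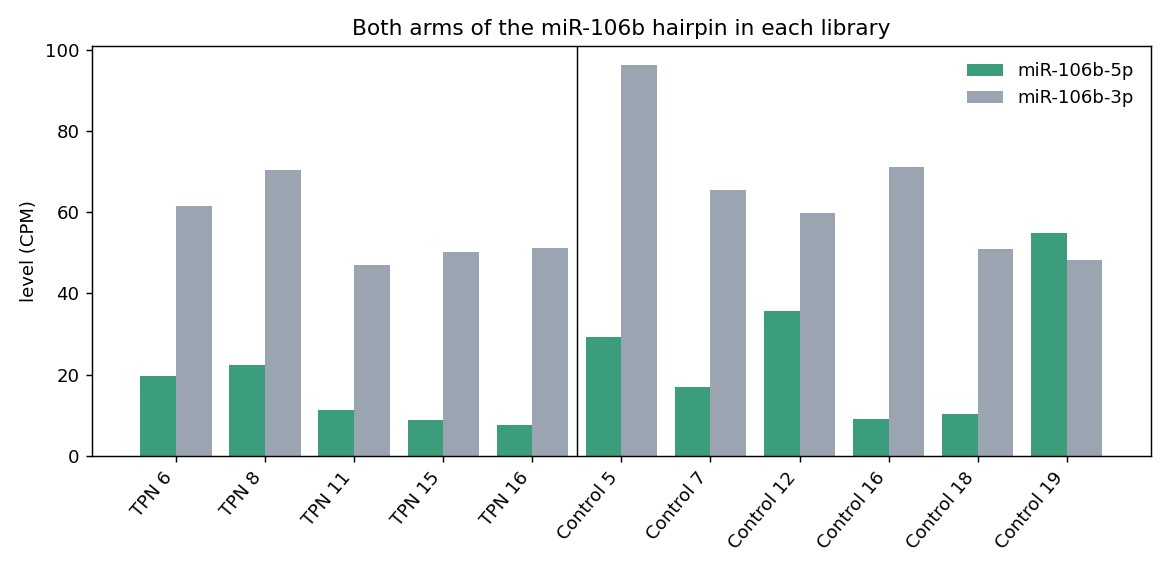
Level of miR-106b-5p and miR-106b-3p in each library, in CPM, TPN rats left of Control rats. The 3p arm is higher in all but Control 19, where the 5p arm stands at 54.9 CPM and the 3p arm at 48.1 CPM.

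Set against each other as sums of the rows below, the clusters had more reads in the Mcm7 intron cluster in every rat. With leading arms only, the ratio of Mir17-92 to Mcm7 was 1.02 in Control 19 and 0.197 to 0.481 in the other rats. The 12 rows that have a gene on chromosome 15 summed to 357, 327, 128, 175 and 170 CPM in TPN 6, 8, 11, 15 and 16, and to 158 to 658 CPM with a median of 311 in Control. The 6 rows of the Mcm7 intron summed to 801, 1069, 689, 764 and 817 CPM in the same TPN rats, and to 690 to 1326 CPM with a median of 877 in Control. Levels of different microRNAs are compared here as reads per mature row. These sequences are all of nearly the same length, but that does not make their reads equal measures of molecules. How evenly the library preparation captured different sequences was not measured. The comparisons between clusters, members and arms are therefore of reads only.

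The ratio of the sums does not depend on how a library is scaled. It was 0.446, 0.306, 0.186, 0.228 and 0.208 in TPN 6, 8, 11, 15 and 16, against 0.350, 0.388, 0.320, 0.213, 0.210 and 0.953 in Control 5, 7, 12, 16, 18 and 19. TPN 11 and 16 lay just below the Control range and the other 3 TPN rats inside it, and Control 19 was the only rat with clusters of nearly equal level. The mean log2 ratio was -1.94 ± 0.51 in TPN and -1.51 ± 0.80 in Control (SD, n = 5 and 6), a difference of -0.43 that is smaller than either SD. It was -0.14 without Control 19 and 0.0086 without Control 5, 12 and 19. Among rats numbered below 10 (only TPN 6 and 8 and Control 5 and 7) it was 0.0021. Among those numbered 10 or more, which include Control 12 and 19, it was -0.73. The labels name no batch and give no reason for a boundary at 10. No test was run on the ratio, because it is a score over chosen members.

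**Figure D3:**
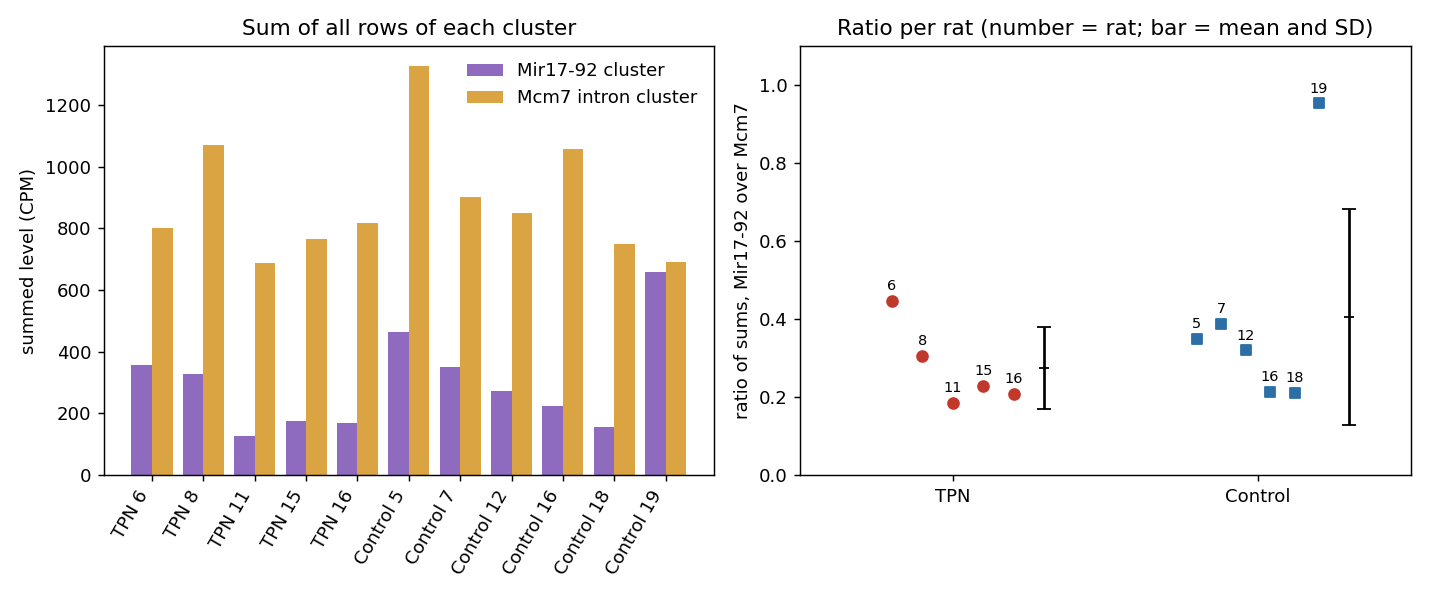
Left, summed CPM of the Mir17-92 cluster (12 rows) and the Mcm7 intron cluster (6 rows) in each library. Right, the ratio of the sums per rat, TPN left of Control, with the mean and SD of each group. Control 19 stands at 0.953 and the other 10 rats lie between 0.186 and 0.446.

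Some members kept steadier proportions across rats than others. The summed ratio of miR-17-5p and miR-20a-5p to their Mcm7-encoded seed relatives miR-93-5p and miR-106b-5p lay between 1.51 and 2.52 in TPN and between 1.62 and 2.50 in Control, so that the highest of the 11 values was 1.67 times the lowest. The mean log2 ratio was 1.03 ± 0.27 in TPN and 1.05 ± 0.26 in Control (SD). Within the Mcm7 intron, the ratio of miR-93-5p to miR-25-3p lay between 0.0655 and 0.128 in TPN and between 0.0654 and 0.313 in Control, and its highest value was 4.78 times its lowest. Within Mir17-92, the ratio of miR-20a-5p to miR-92a-3p ran from 3.47 to 21.8 in TPN and from 4.71 to 35.0 in Control, and its highest value was 10.1 times its lowest. miR-106b-5p did not keep to its seed relatives. Its ratio to miR-93-5p lay between 0.151 and 0.289 in TPN and between 0.105 and 0.431 in Control, and miR-20a-5p was 5.42 to 12.97 times miR-106b-5p in TPN and 4.06 to 14.8 times in Control. These spans are descriptions of 11 libraries, without a test.

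The ratio of miR-20a-5p to miR-25-3p, the leading products of the clusters, had values of 0.342, 0.235, 0.103, 0.151 and 0.141 in TPN 6, 8, 11, 15 and 16, and of 0.128 to 0.882 with a median of 0.248 in Control. Control 19 held the highest value. By contrast, miR-25-3p and miR-106b-3p, 2 arms from different hairpins of the same intron, kept a ratio of 10.3 to 13.8 in TPN and 9.30 to 12.7 in Control. That ratio varied least of those described here, its highest value being 1.48 times its lowest. miR-25-3p and miR-92a-3p, which share a seed but come from different clusters, had a ratio of 33.8 to 63.6 in TPN and 33.75 to 55.0 in Control.

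**Figure D4:**
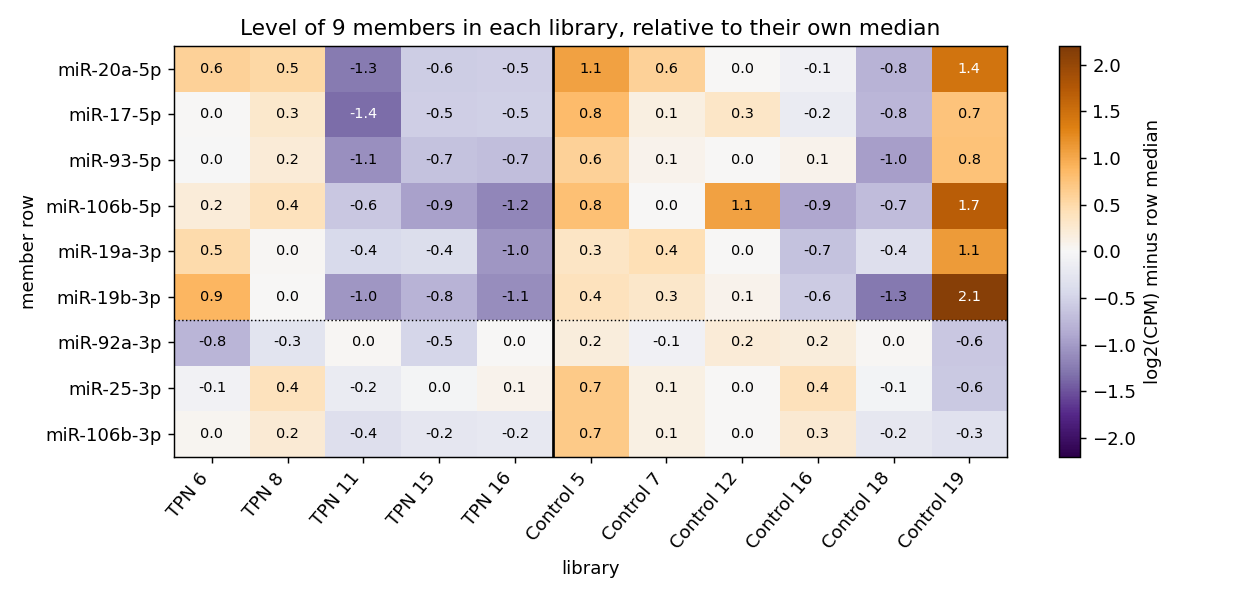
log2(CPM) of the 9 members of at least 10 CPM in each library after subtracting the row's median over 11 libraries, TPN left of Control. The upper 6 rows are high in Control 19 and low in TPN 11, 15 and 16 and Control 18, while miR-92a-3p, miR-25-3p and miR-106b-3p are low in Control 19.

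The spread between rats differed among the 9 members of at least 10 CPM. The SD of log2(CPM + 1) within groups was 0.30 for miR-92a-3p, 0.31 for miR-106b-3p and 0.35 for miR-25-3p. It was 0.57 for miR-93-5p, 0.58 for miR-19a-3p, 0.59 for miR-17-5p, 0.80 for miR-20a-5p, 0.85 for miR-106b-5p and 0.99 for miR-19b-3p. The median of the 168 rat-named rows of at least 10 CPM was 0.51. The 3 members of smallest spread have a GC content of 50% to 63.6% in the sequences above, and the 3 of largest spread have 39.1% to 42.9%. miR-93-5p, at 52.2%, had a middle spread and miR-19a-3p, at 34.8%, likewise, so the order is not strict. Base composition was not tested as a part of these differences.

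The members were also summed by seed. The 4 members with the seed of miR-17-5p summed to 244 ± 111 CPM in TPN and 379 ± 180 CPM in Control (SD, n = 5 and 6), and the 2 with the seed of miR-19 to 47.3 ± 25.3 CPM in TPN livers, against 73.7 ± 55.4 CPM in Control livers. The 3 with the seed of miR-92a, led by miR-25-3p, summed to 709 ± 112 CPM in TPN livers, against 762 ± 219 CPM in Control livers. In all 3 the difference of the means was smaller than the Control SD. For the seeds of miR-17-5p and miR-19 that difference was larger than the TPN SD. All 21 members together held 0.106% ± 0.0225 of the reads in TPN and 0.129% ± 0.0293 in Control (SD).

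The remaining paralogue, miR-92b-3p, was close to the limit of the filter. It had 1.40, 0.609, 1.05, 0.838 and 1.46 CPM in TPN 6, 8, 11, 15 and 16, against 0.341 to 2.14 CPM with a median of 0.928 in Control, and 79 reads in all. Its log2 fold change was 0.05 ± 0.36 (SE, adjusted p = 0.962, limma-trend). miR-32-5p, which has the seed of miR-92a-3p but belongs to neither cluster, had a mean of 18.9 CPM in both TPN and Control, with a log2 fold change of 0.04 ± 0.31 (SE, adjusted p = 0.969, limma-trend). Both arms of miR-32 were tested and 0 of 2 were called.

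The rat-named rows outside the members that followed miR-20a-5p most closely over the 11 libraries, after removing each group's mean, were miR-30c-2-3p, miR-203b-3p and miR-30e-5p. Their Pearson's r was 0.985, 0.981 and 0.962 (Spearman's rho 0.973, 0.973 and 0.945), and 0.982, 0.978 and 0.946 without Control 19 and TPN 6, the 2 libraries farthest from the median. The rows nearest to miR-25-3p were miR-27b-3p, miR-99b-5p and miR-152-3p, with r of 0.927, 0.907 and 0.887 (rho 0.927, 0.909 and 0.700), and 0.823, 0.811 and 0.624 without Control 5 and 19. For miR-92b-3p the nearest were miR-1b, miR-125b-2-3p and miR-6215 (r of 0.671, 0.605 and 0.596, rho of 0.582, 0.609 and 0.509). Their r was 0.158, 0.340 and 0.478 without Control 12 and 19. miR-92b-3p had between 1 read (Control 19) and 12 reads (TPN 6) in a library. miR-6215 had a mean of 0.933 CPM in TPN and 47.4 CPM in Control, so it reached 10 CPM only through Control. Each set of nearest rows is the top of 159 rows of at least 10 CPM that share the scaling of their library, so no p is given.

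Smc4, which encodes a subunit of the condensin that packs chromosomes for division, hosts miR-15b and miR-16, and these served as a comparison with another division-linked host gene. Of their 3 tested rows 0 were called and 3 had negative values. miR-16-5p had 193, 172, 80.7, 85.9 and 91.1 CPM in TPN 6, 8, 11, 15 and 16, against 129 to 447 CPM in Control. Its log2 fold change was -0.90 ± 0.35 (SE, adjusted p = 0.296, limma-trend). That of miR-15b-5p was -0.997 ± 0.32 and that of miR-15b-3p -0.42 ± 0.29 (SE, adjusted p = 0.296 and 0.348, limma-trend). Whether all reads of miR-16-5p came from Smc4 was not determined.

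The sum of the red blood cell markers, most of it miR-451-5p, differed between rats in an order like that of miR-20a-5p. Both arms of miR-144 departed from that order. In Control, miR-144-3p was highest in Control 18 (9.86 CPM) and stood at 4.10 CPM in Control 19. In TPN, miR-144-5p stood at 1.15 CPM in TPN 8, below its 1.32 CPM in TPN 15. The 4 red blood cell rows (both arms of miR-451 and miR-144; miR-486 has no row) summed to 261, 88.4, 34.8, 31.3 and 33.4 CPM in TPN 6, 8, 11, 15 and 16, and to 801.6, 422, 164, 210, 133 and 576 CPM in Control 5, 7, 12, 16, 18 and 19. miR-20a-5p stood at 218, 207, 60.6, 98.4 and 99.6 CPM in these TPN rats, and at 302, 219, 144.5, 135, 82.9 and 395 CPM in these Control rats. In both lists TPN 6 and 8 led their group, and Control 5, 7 and 19 led theirs. Of the 3 red cell rows tested 0 were called, with a median log2 fold change of -1.21. The sum of the 12 lymphoid and myeloid rows, most of it miR-146a-5p, did not share this order. It was 567, 801, 724, 630 and 458 CPM in these TPN rats, and 719, 916, 1195, 518, 952 and 999.7 CPM in these Control rats. Within this list, TPN 6 and 8 led their group in miR-142-3p, miR-150-5p, miR-155-5p and miR-223-3p, but not in the other tested rows. In none of these named rows did Control 5, 7 and 19 together lead Control. Of the lymphoid and myeloid rows, 0 of 9 tested were called. No row of either list was at 0 in all libraries.

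The lists of liver cell types were mixed. The hepatocyte sum was carried by miR-122-5p and miR-192-5p and was lowest in TPN 6 (66369 CPM) and Control 19 (54078 CPM), the rats with the most miR-20a-5p in their groups. Of the same list, miR-802-5p was highest in these rats, at 44.0 CPM in TPN 6 and 58.7 CPM in Control 19, and so was miR-192-3p, at 8.96 CPM in TPN 6 and 19.8 CPM in Control 19. None of the 8 hepatocyte rows was called. The sum of stellate cells, fibroblasts and smooth muscle was highest in TPN 6 (28086 CPM) and Control 19 (37661 CPM), and miR-143-3p made up nearly all of it, with 27212 CPM in TPN 6 and 36368 CPM in Control 19. In that list miR-145-3p was lowest in these rats, at 13.04 CPM in TPN 6 and 12.6 CPM in Control 19, and 0 of 7 rows were called. As CPM are shares of a library, a level also moves with what the most abundant rows take. In whole liver, fewer cells of a type and less RNA per cell cannot be told apart, and the part of cell types or of library composition in these levels was not tested.

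The other marker lists had no call either. The summed levels were 3162 to 6568 CPM in TPN and 2019 to 6849 CPM in Control for endothelium (0 of 2 tested rows). They were 584 to 1759 CPM in TPN and 509 to 1230 CPM in Control for biliary and other epithelium (0 of 7).

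How the libraries are scaled decided the sign of several members but none of the calls. TMM scaling moved the median of the rat-named rows to 0.10 and upper-quartile scaling moved it to 0.91, against -0.26 as deposited. With TMM the log2 fold changes of miR-25-3p, miR-106b-3p, miR-92a-3p and miR-19a-3p were 0.35, 0.21, 0.11 and 0.0023, and the other 6 negative values kept their sign. With upper-quartile scaling all 11 were positive, from 0.22 for miR-18a-5p to 1.33 for miR-25-3p, with a median of 0.77. That scaling divided the CPM of Control 5, 12 and 19 by 2.67, 6.24 and 2.24. In the other libraries its factors ran from 0.510 in TPN 6 to 0.766 in Control 7. The TMM factors of Control 5, 12 and 19 were 1.39, 1.25 and 1.16. In all 3 scalings, with all rats, miR-25-3p and miR-106b-3p lay above the median of the rat-named rows. miR-20a-5p, miR-17-5p, miR-93-5p, miR-106b-5p, miR-19b-3p and miR-18a-5p lay below it. That split did not hold on the deposited scale without Control 5, 12 and 19, where the median of the rat-named rows was -0.281. There miR-20a-5p (-0.145), miR-17-5p (-0.154), miR-93-5p (-0.177), miR-106b-5p (0.114) and miR-19b-3p (0.098) lay above the median. Only miR-18a-5p (-0.283) of those named as below still lay below it.

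**Figure D5:**
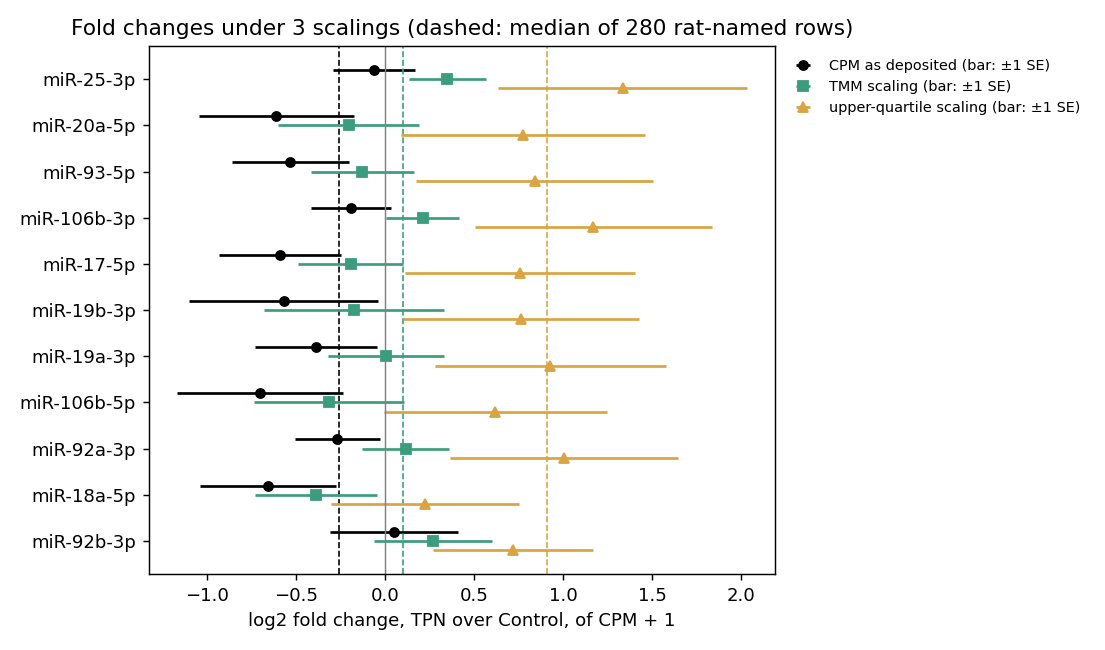
log2 fold change (TPN over Control, of CPM + 1) of the 11 tested members with bars of 1 SE, for CPM as deposited, with TMM and with upper-quartile scaling. Dashed lines mark the median of the 280 rat-named rows under each scaling (-0.26, 0.10 and 0.91), and the members lie on both sides of it.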

How the data were processed

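Small RNA of rat liver was measured in 5 TPN and 6 Control rats with Illumina sequencing. In the 1 table that the authors deposited, values are CPM (each of the 11 columns, 1 per rat, sums to 1000000). DESeq2 is named, without version or role, per the submitters' processing notes. Aligner, microRNA database, build, filters and how reads matching several genes were handled: none is given in the sources used here. Of the tested rows 28 were identical to another row, none of them a member.

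Non-zero values were whole multiples of the column's smallest value (100% within 0.001), which gave the reads back. A count of 0 allows 3 reads of the total, from 0.203 CPM in TPN 8 to 2.14 CPM in Control 12. Intervals are exact Clopper-Pearson at 95% and, as with these limits, counting error is all they cover, because molecular identifiers are not mentioned.

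The fit used limma-trend (R 4.3.3, limma 3.58.1) on log2(CPM + 1), keeping every row that averaged 1 CPM or more, without covariates or further scaling, with Benjamini-Hochberg adjustment over all rows. The alternatives were limma-voom, DESeq2 1.42.0 and the quasi-likelihood test of edgeR 4.0.16 on the recovered reads, other scalings, filters and pseudocounts, and leaving out libraries. The cluster sums take the rows with a gene on chromosome 15 in the RefSeq table, which leaves out miR-17-2-3p.

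The members and lists were chosen with earlier results of these data known. Members of at least 10 CPM are given rat by rat, as are miR-18a-5p and miR-92b-3p, added after their values were seen. The other rows named are the X-linked paralogues, rows of the same seed, the Smc4 pair, the cell type markers and, for the most abundant row of each cluster, the 3 nearest rows. The ratios between single members and the grouping by spread were also chosen after seeing the values.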

Additional observations from a re-analysis of the deposited data

Results flagged for a closer look

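Among 32 groups examined (16 measures in TPN and in Control), 4 values stood apart from their group by Dixon's criterion at the 95% level. The criterion was applied to CPM and ratios without a logarithm. Chance flags about 1 in 20 groups where values are normally distributed and groups independent. These measures share rows and their distribution was not checked, so the 4 values cannot be set against that rate. In 3 of the 4 the value was that of Control 19. miR-19b-3p stood at 130 CPM there, where the next Control rat had 38.8 CPM. The ratio of the Mir17-92 cluster to the Mcm7 intron cluster was 0.953 there and 0.388 in the next rat. The ratio of miR-20a-5p to miR-25-3p was 0.882 there and 0.299 in the next rat. The remaining value was miR-18a-5p in TPN 8, at 3.11 CPM, where the next TPN rat had 1.40 CPM. Control 19 had 2929983 reads, of which 0.560% fell in predicted rows, and the part of these properties in its values was not tested.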

How the results depend on the processing

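No alternative called a member, and all but DESeq2 called 0 rows, as in the fit reported (0 in every fit that left out 1 library). DESeq2 called 113. At an unadjusted p under 0.05, 60 rows were lower, against 20 to 38 without TPN 11, 15 or 16 or Control 5, 12 or 19, 40 without TPN 6, 44 without TPN 8, and 130 or more without Control 7, 16 or 18. Of the 11 members tested, 1 was among them without Control 16 and 2 without Control 18. Both were smaller shares than those of all rows tested in the same fits. No paired analysis was possible because the groups share only the number 16. Filters, pseudocounts and the restriction to rat-named rows left the sign of every tested member as it was. With upper-quartile scaling the log2 fold changes were 1.33 (miR-25-3p), 0.77 (miR-20a-5p), 0.84 (miR-93-5p), 1.17 (miR-106b-3p), 0.76 (miR-17-5p), 0.76 (miR-19b-3p), 0.93 (miR-19a-3p), 0.62 (miR-106b-5p), 1.003 (miR-92a-3p) and 0.22 (miR-18a-5p). For miR-25-3p, miR-106b-3p and miR-92a-3p they were 0.35, 0.21 and 0.11 with TMM, 0.29, 0.15 and 0.059 with RLE, 0.36, 0.26 and 0.19 with edgeR, 0.24, 0.12 and 0.060 with DESeq2 and 0.42, 0.27 and 0.16 with limma-voom. For miR-19a-3p they were 0.0023 with TMM, 0.095 with edgeR and 0.072 with limma-voom. Without Control 5, 12 and 19, miR-19b-3p stood at 0.098 and miR-106b-5p at 0.11. Among rats numbered below 10, miR-19b-3p stood at 0.095 and miR-92b-3p at -0.12, and among those numbered 10 or more miR-25-3p stood at 0.0073. Leaving out 1 library at a time gave -0.20 to 0.054 for miR-25-3p and -0.062 to 0.14 for miR-92b-3p, and the other 9 tested members stayed below 0.

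The difference in log2 ratio between the clusters was 0.0086 without Control 5, 12 and 19 and 0.0021 among rats numbered below 10, against -0.43 with all rats, and -0.62 to -0.14 when 1 library was left out. It was -0.43 with leading arms only, -0.44 without miR-19b and miR-92a, -0.44 without miR-17 as well (an alternative added after seeing the data), -0.083 for the mean log2 levels and -0.022 for the same-seed pairs. The difference in the log2 ratio of miR-106b-5p to miR-106b-3p was 0.28 without Control 5, 12 and 19 and 0.18 among rats numbered below 10, and -0.82 to -0.19 when 1 library was left out (Control 19 gave the -0.19). The causes were not tested. Depth limits the 10 members under 1 CPM, miR-92b-3p and miR-18a-5p, which had 1 and 4 reads in their poorest library.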
